A study of Homo sapiens with 72 samples.

Results

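The earliest transcriptional response of PEO1 cells to rucaparib was measured in unsorted cells after 2 h of drug (Ruc_Total), set against unsorted cells that received DMSO alone for 2 h (Vehicle). PEO1 is an established line grown from a high-grade serous ovarian tumour with a BRCA2 mutation, and rucaparib is a PARP inhibitor with a fluorescence of its own. The libraries were chosen by their labels, an unsorted gate and the 2 h time point, which gave 18 of the 72 libraries of the series, 9 of Ruc_Total and 9 of Vehicle. Both groups were the same line, and the drug was given at 8.5 µM. Cells of both groups were scraped into lysis buffer without passing through a sorter, and their polyadenylated RNA was sequenced as directional libraries. The 3 libraries that share a replicate number were treated as technical and summed, so that 3 Ruc_Total samples were compared with 3 Vehicle samples, paired by that number. The same treatment at 24 h, and the 20% of treated cells with the highest (Ruc_High) and the lowest (Ruc_Low) drug fluorescence at 2 h, entered the same fit, which takes its estimate of the spread from all 24 summed samples of 8 groups, and were used to place the genes found. All groups come from 1 cell line, and p-values measure the spread between these samples, which may be technical.

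Transcription by RNA polymerase II pauses shortly after it starts, and release into elongation needs P-TEFb, the pair of the kinase CDK9 with a cyclin T. Much of P-TEFb is held inactive in a particle built on the 7SK RNA, in which HEXIM1 or HEXIM2 inhibits the kinase, LARP7 binds the RNA and MEPCE caps it. At the other end of the gene, PPP1R10 (also called PNUTS) brings protein phosphatase 1 to the polymerase in a complex with WDR82 and TOX4, and ZC3H4 works with WDR82 to end unproductive transcription early.

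PPP1R10, HEXIM1 and MEPCE had the 3 smallest p-values of the comparison, and all were lower in Ruc_Total. Their promoters are shown because these genes lead the comparison. Each run covers 250 bases before and 50 bases after the gene's start in the RefSeq table (GRCh38.p14), written on the gene's own strand. Capitals mark the GC box (GGGCGG), the CCAAT box (CCAAT) and the TATA box (TATAAA), searched on both strands, so that their reverse complements are in capitals too. None of these contains another.
PPP1R10: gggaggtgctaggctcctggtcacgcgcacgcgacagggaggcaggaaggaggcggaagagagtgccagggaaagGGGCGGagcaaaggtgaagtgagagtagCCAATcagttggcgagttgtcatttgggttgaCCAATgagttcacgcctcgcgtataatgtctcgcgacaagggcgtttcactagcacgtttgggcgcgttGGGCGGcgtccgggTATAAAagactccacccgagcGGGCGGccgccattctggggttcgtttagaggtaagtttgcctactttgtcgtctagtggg
HEXIM1: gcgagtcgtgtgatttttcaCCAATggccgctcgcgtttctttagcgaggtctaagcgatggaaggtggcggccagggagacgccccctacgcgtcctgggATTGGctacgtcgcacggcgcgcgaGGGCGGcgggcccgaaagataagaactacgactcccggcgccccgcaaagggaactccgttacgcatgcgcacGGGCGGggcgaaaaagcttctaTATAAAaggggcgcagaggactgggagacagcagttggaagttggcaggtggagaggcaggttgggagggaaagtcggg
MEPCE: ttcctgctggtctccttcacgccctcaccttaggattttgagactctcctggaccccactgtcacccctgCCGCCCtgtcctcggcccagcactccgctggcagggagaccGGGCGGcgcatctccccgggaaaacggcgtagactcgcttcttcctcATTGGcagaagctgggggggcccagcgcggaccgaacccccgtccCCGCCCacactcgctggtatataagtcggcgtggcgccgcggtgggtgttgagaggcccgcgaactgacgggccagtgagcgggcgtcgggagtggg
These windows lie at chr6:30617194-30617493 (minus strand) for PPP1R10, chr17:45148225-45148524 (plus strand) for HEXIM1 and chr7:100428540-100428839 (plus strand) for MEPCE. The PPP1R10 window held 3 GC boxes, 2 CCAAT boxes and 1 TATA box. The HEXIM1 window held 2, 2 and 1 of them, and the MEPCE window held 3, 1 and 0. Of the genes called lower, 19 of 23 had a promoter in the table, and a CCAAT box was found in 14 of these, a GC box in 15, a TATA box in 3 and an E-box (CACGTG) in 0. Over the promoters of 12979 tested genes these motifs were present in 36.2%, 67.1%, 6.6% and 9.67%. A match describes the letters of the window only.

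Before the results, 1 sample has to be singled out. Vehicle replicate 1 differed from the other Vehicle samples in several genes that were not called, with PARP1, NR4A1 and COL1A1 among them. PARP1, the main target of the drug, had 33.6, 79.5 and 64.5 CPM (the share of a sample's counts, scaled to 1e6) in Ruc_Total replicates 1 to 3, against 0.549, 47.5 and 73.2 CPM in Vehicle. PARP1 also ranged from 12.4 to 45.2 CPM over the 3 libraries of Ruc_Total replicate 1, so that no direction is read from it. One library of each Ruc_Total replicate drew its reads from shorter transcripts than its fellows, with a mean transcript length of 2255 to 2530 bases. Every library of the series under 2800 bases, with 3 Ruc_Total and 4 Vehicle libraries at 2 h among them, was left out in 1 alternative. It was chosen after the data were seen. It kept the direction of all 29 genes called in the comparison and left 28 of them called, with GINS1 as the exception. As that alternative called 1017 of the 18828 genes it tested, the kept calls are a weak check.

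Totals of estimated reads were 27050929 to 35395240 per Ruc_Total library and 22092472 to 38362530 per Vehicle library. Transcripts without a gene in the annotation took 7.53% to 8.22% of the reads in Ruc_Total and 7.70% to 8.80% in Vehicle. Most markers of the serous lineage were expressed, with PAX8 at 161, 182 and 184 CPM in Ruc_Total and 176.5, 147 and 171 CPM in Vehicle, and WT1 between 31.7 and 36.6 CPM in all 6 samples. Of the 12 markers, MECOM was low, at 0.337 to 1.225 CPM over the Ruc_Total libraries and 0.594 to 1.54 CPM over those of Vehicle, and SOX17 was at 0 in 9 of 9 Ruc_Total and 8 of 9 Vehicle libraries. Only 2 of 8 immune, 4 of 5 endothelial and 3 of 7 fibroblast markers had enough reads to be tested. The immune markers CD3E and NKG7 and the fibroblast marker LUM were at 0 or under 0.1 CPM in every library, while CD68 had 16.8 to 25.6 CPM in Ruc_Total libraries and 11.3 to 20.1 CPM in Vehicle libraries. CD14 had 3.75 to 6.55 CPM in Ruc_Total and 4.78 to 6.56 CPM in Vehicle, and the endothelial marker CDH5 had 5.997 to 19.6 CPM in Ruc_Total and 12.03 to 25.4 CPM in Vehicle. COL1A1 had 6.03, 7.02 and 6.51 CPM in Ruc_Total, against 32.8, 7.28 and 6.52 CPM in Vehicle, and the part of these markers in the results was not tested. Fewer cells of a kind and less RNA per cell cannot be told apart in such bulk samples.

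Of 20111 genes tested, 29 were called at an adjusted p under 0.05 (0.144%), 6 higher (0.0298%) and 23 lower (0.114%) in Ruc_Total. The test was edgeR's quasi-likelihood test with the replicate number in the model and Benjamini-Hochberg adjustment. Without the replicate number 5 genes were called (0.0249%), and these were PPP1R10, HEXIM1, MEPCE, C11orf68 and CBX2. A fit of the 6 samples alone called 0 genes by edgeR, with 921 at an unadjusted p under 0.05, and one of the 12 samples at 2 h called 1. DESeq2 on all samples called 419. The 29 genes kept their direction in each of 18 alternative analyses. These refit the samples that chose the genes, each of which moved the same way in 3 of 3 pairs. The kept direction is therefore a description only, and which of the genes passed the threshold depended on the samples. Leaving out replicate 1, 2 or 3 left 4, 0 and 1 of them called. With an offset for effective transcript length 8 of the 29 remained called, with HEXIM1 and MEPCE among them.

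PPP1R10 (chromosome 6, 30600400 to 30618612, minus strand; GRCh38) showed the clearest decrease. It had 17.2, 19.8 and 23.5 CPM in Ruc_Total replicates 1 to 3, against 52.2, 42.96 and 54.2 CPM in Vehicle. Every Ruc_Total library was below every Vehicle library, with 9.24 to 27.7 CPM over the 9 libraries of Ruc_Total and 38.9 to 56.9 CPM in Vehicle. The log2 fold change was -1.30 ± 0.14 (SE, edgeR quasi-likelihood, adjusted p = 0.00036). With an offset for effective transcript length it was -1.07 and no longer passed (adjusted p = 0.0737), and without the libraries of short transcripts it was -1.19 (adjusted p = 0.00205). It overlaps MRPS18B on the other strand, and its reads were summed over all transcripts of the gene.

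HEXIM1 (chromosome 17, 45148502 to 45152101, plus strand), the inhibitor of P-TEFb and a gene of a single exon, fell as well. Its level was 156, 140 and 146 CPM in Ruc_Total, against 334, 267 and 228 CPM in Vehicle. The groups do not overlap, although 1 Vehicle library reached 427 CPM. The log2 fold change was -0.90 ± 0.10 (adjusted p = 0.00036), and leaving out the Vehicle library of the lowest total gave -0.84 (adjusted p = 0.000185). MEPCE (chromosome 7, 100428790 to 100434126, plus strand), the capping enzyme of the 7SK RNA, had 37.3, 49.1 and 42.8 CPM in Ruc_Total and 93.7, 75.9 and 74.7 CPM in Vehicle. Its samples do not overlap either, and its log2 fold change was -0.92 ± 0.11 (adjusted p = 0.0006). Without replicate 1 the log2 fold changes of PPP1R10, HEXIM1 and MEPCE were -1.16, -0.78 and -0.71 (adjusted p = 0.0313, 0.0462 and 0.0462). Without replicate 2 all 3 had an adjusted p of 0.15, and without replicate 3 the values were 0.043, 0.0579 and 0.165. MEPCE overlaps ZCWPW1 on the other strand.

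The kinase of the same particle moved the other way. CDK9 (chromosome 9, 127785679 to 127790787, plus strand) had 59.4, 62.3 and 63.7 CPM in Ruc_Total, against 46.2, 51.1 and 48.1 CPM in Vehicle. All 3 pairs were higher in Ruc_Total, with a log2 fold change of 0.35 ± 0.07 (adjusted p = 0.0417; 0.255 without the replicate number). It did not pass without replicate 1, 2 or 3 (adjusted p = 0.397, 0.28 and 0.23). Of the 8 genes of P-TEFb and the 7SK particle, all tested, 2 were called lower and 1 higher, beside 0.114% and 0.0298% of all genes. This list and the other gene lists were chosen with earlier results of these data known, so the count is a description only. The cyclin CCNT2 had 35.3, 34.7 and 33.6 CPM in Ruc_Total and 19.2, 21.6 and 28.6 CPM in Vehicle, a log2 fold change of 0.58 that did not pass (adjusted p = 0.255). HEXIM2, the second inhibitor, had 15.6, 12 and 12.7 CPM in Ruc_Total, against 30.02, 19.1 and 12.2 CPM in Vehicle, and its groups overlapped. CCNT1 and LARP7 had log2 fold changes of 0.22 and 0.07, neither of which passed.

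**Figure D1:**
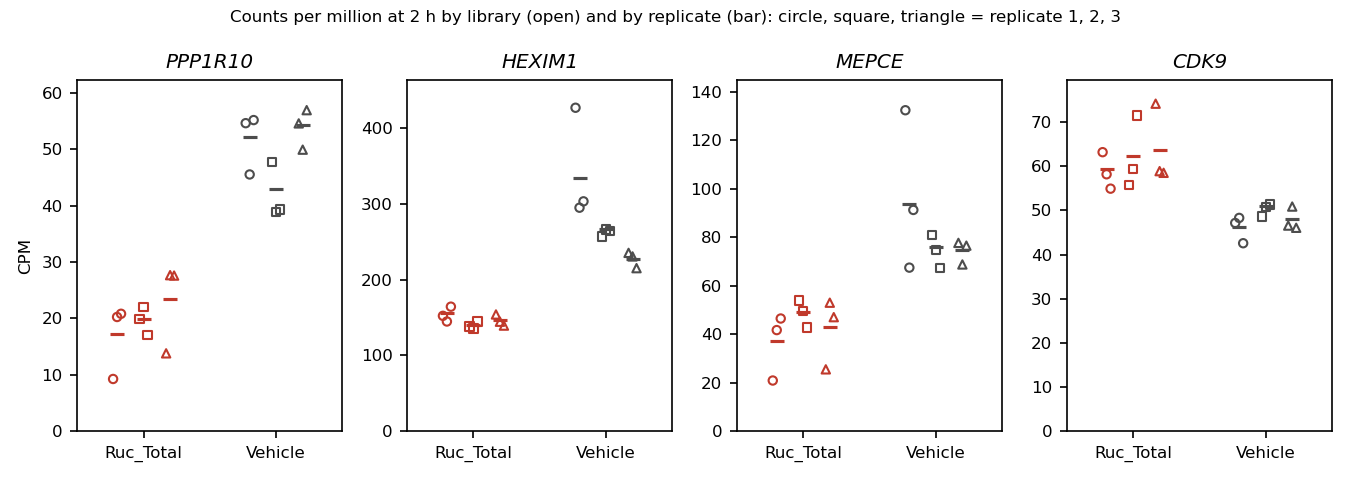
CPM (y axis, from 0) of PPP1R10, HEXIM1, MEPCE and CDK9 in the libraries (open symbols) and summed samples (bars) of Ruc_Total and Vehicle at 2 h, with circles, squares and triangles for replicates 1, 2 and 3. PPP1R10, HEXIM1 and MEPCE libraries of Ruc_Total all lie below those of Vehicle, and CDK9 libraries of Ruc_Total all lie above them.

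ZC3H4 was the other called regulator of termination. It had 44.8, 44.4 and 48.6 CPM in Ruc_Total, against 68.9, 62.4 and 76.1 CPM in Vehicle, a log2 fold change of -0.59 ± 0.08 (adjusted p = 0.0037; 0.358 with the offset for length). Its samples do not overlap between the groups. The partners of PPP1R10 had values near 0. WDR82 and TOX4 had log2 fold changes of -0.08 and 0.02, and the catalytic subunits PPP1CA, PPP1CB and PPP1CC had -0.11, 0.10 and 0.00, so that of the 6 genes of the PPP1R10 complex only PPP1R10 was called. Of 21 pausing and elongation factors 0 were called and 1 had an unadjusted p under 0.05, as 13% of all genes did, with a median log2 fold change of 0.05 beside 0.02 over all genes tested. The largest decrease among those of at least 5 CPM was in NELFA, a subunit of the pausing factor NELF, with -0.33 (adjusted p = 0.114).

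Of the 6 genes called higher, C11orf68 and INHBA had the smallest adjusted p. C11orf68 had 100.5, 107 and 107 CPM in Ruc_Total and 56.8, 69.3 and 66.6 CPM in Vehicle, with a log2 fold change of 0.70 ± 0.10 (adjusted p = 0.0037). INHBA, which encodes a subunit of activin A, had 308, 237 and 259 CPM in Ruc_Total and 131, 161 and 143 CPM in Vehicle, with a log2 fold change of 0.87 ± 0.13 (adjusted p = 0.0128). Both were higher in 3 of 3 pairs. RBM14, a paraspeckle protein, had 197, 182 and 205 CPM in Ruc_Total, against 131, 123 and 136 CPM in Vehicle (log2 fold change 0.58 ± 0.09), and its reads cannot be told apart from those of the RBM14-RBM4 readthrough gene on the same strand. BHLHE40, a transcriptional repressor of the circadian clock, had 284, 276 and 298 CPM in Ruc_Total, against 182, 173 and 223 CPM in Vehicle (0.58 ± 0.11). ZBTB11, a zinc finger protein, was low, at 3.29, 1.96 and 2.11 CPM in Ruc_Total and 1.048, 1.299 and 0.987 CPM in Vehicle (1.098 ± 0.19). Each of these was higher in all 3 pairs.

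The other genes called lower are given by what each is known to do, with no list behind the order. The Wnt receptor FZD1 had 12.2, 11.3 and 11.9 CPM in Ruc_Total and 22.4, 16.8 and 18.2 CPM in Vehicle, with a log2 fold change of -0.70 ± 0.11. The Wnt pathway gene FRAT1 and the Notch feedback gene NRARP had the steepest changes, -1.32 ± 0.25 and -1.31 ± 0.24, at levels under 1 CPM in all Ruc_Total samples. In FRAT1 these were 0.913, 0.927 and 0.817 CPM, against 3.45, 2.24 and 1.20 CPM in Vehicle, so that the gap was widest in replicate 1 and narrowest in replicate 3. Replicate 1 gave the largest change in 18 of the 23 genes called lower and 3 of the 6 called higher, beside 10823 of all 20111 genes.

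Cell cycle genes were called singly. GINS1, a subunit of the replicative helicase, had 27.7, 27.9 and 28.8 CPM in Ruc_Total, against 46.1, 47.7 and 47.5 CPM in Vehicle (log2 fold change -0.74 ± 0.13, adjusted p = 0.0255). Its libraries were far less even than these sums, at 0.116 to 41.6 CPM in Ruc_Total and 27.5 to 59.2 CPM in Vehicle. Without the libraries under 2800 bases its log2 fold change was -0.33 and it was no longer called (adjusted p = 0.303). CDC25A, the phosphatase that activates CDK2, had 24.4, 19.8 and 23.8 CPM in Ruc_Total, against 35.6, 28 and 31.6 CPM in Vehicle (-0.49 ± 0.08), and with the offset for length its log2 fold change was -0.27 (adjusted p = 0.41). E2F2, a transcription factor of S phase entry, had 8.02, 6.49 and 6.60 CPM in Ruc_Total, against 10.8, 9.02 and 10.5 CPM in Vehicle (-0.52 ± 0.10). Of 28 DNA replication genes, 1 was called, and 23 of the 28 had a log2 fold change below 0, with a median of -0.12 beside 0.02 over all genes, of which 52.9% were above 0. Medians of this list by replicate were -0.13, -0.18 and -0.08, and 8 of the 28 had an unadjusted p under 0.05, beside 13% of all genes. Of 37 genes of G2 and mitosis 32 had one above 0, with a median of 0.11, 0 called and 0 at an unadjusted p under 0.05. Their medians by replicate were 0.51, -0.02 and -0.11, so the rise rested on replicate 1 alone. The Vehicle sample of that replicate was singled out above.

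Of 21 Polycomb genes only CBX2, a subunit that reads methylated histone H3, was called. It had 9.01, 9.77 and 9.71 CPM in Ruc_Total, against 18.1, 15.05 and 13.3 CPM in Vehicle (log2 fold change -0.71 ± 0.11). MSL1, a scaffold of a histone acetyltransferase complex, had 87.7, 86.3 and 86.5 CPM in Ruc_Total and 140, 107 and 111 CPM in Vehicle (-0.46 ± 0.09). The transcription factors TFAP2C and PATZ1 had -0.56 ± 0.10 and -0.38 ± 0.06, and the rest of the lower genes, SBNO2, HSPA2, CSRNP2, PRR15, CMPK2, TMCC2, FBXO31, ARMC7 and a protein-coding gene without a symbol (ENSG00000170846), lay between -0.73 and -0.37. With the offset PATZ1, SBNO2, TMCC2, FBXO31 and ENSG00000170846 had -0.20, -0.22, -0.43, -0.24 and -0.31, and none of these passed. All 23 were lower in 3 of 3 pairs, as were 13.3% of all genes (13.1% were higher in 3 of 3), and 22 had samples that do not overlap, against 8.53% of all genes, HSPA2 being the exception. These counts rest on the values that chose the genes and are given as a description. CMPK2, FBXO31 and ARMC7 overlap protein-coding genes on the other strand.

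**Figure D2:**
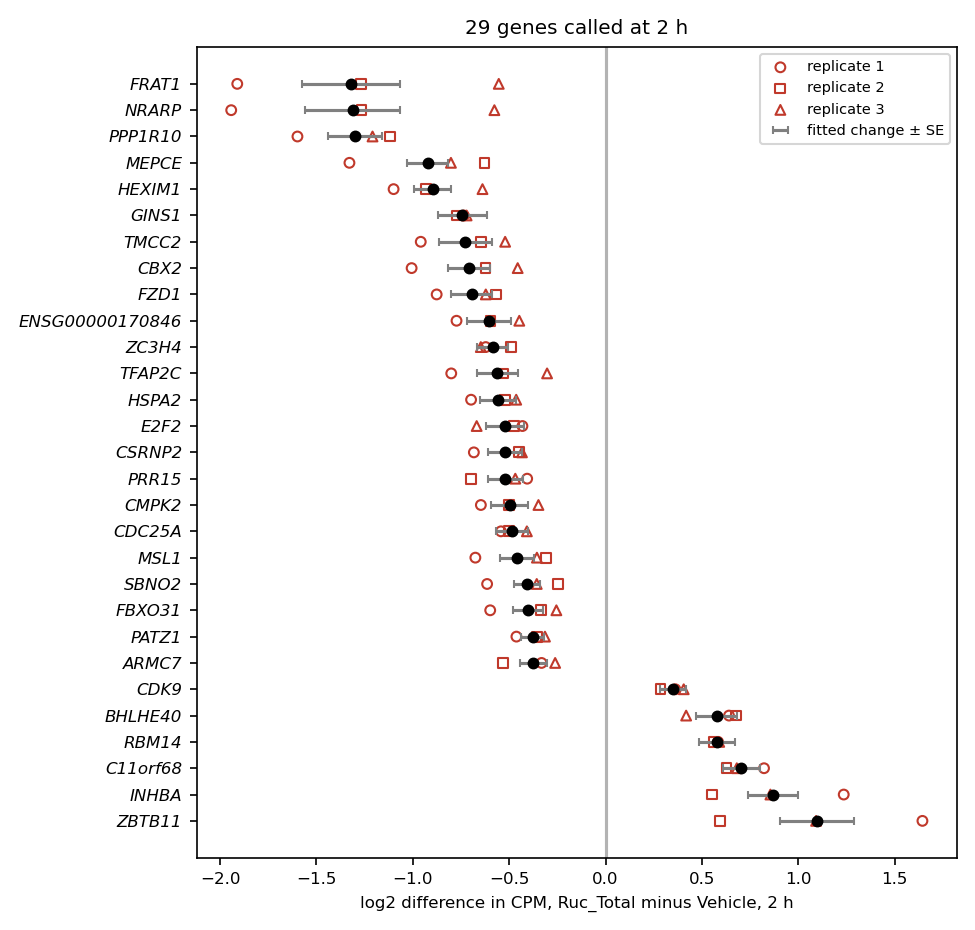
Log2 difference in CPM between Ruc_Total and Vehicle at 2 h (x axis) for each of the 29 called genes (rows), with open symbols for the 3 replicate pairs and black points with bars for the fitted change ± SE. All symbols of a gene lie on 1 side of 0.

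No gene of the PARP, p53 or recombination lists was called at 2 h by edgeR. Of 18 PARP enzymes and genes of ADP-ribose turnover 2 had an unadjusted p under 0.05, beside 13% of all genes. The log2 fold changes of the 18 lay between -0.27 and 0.90, with a median of 0.11. TIPARP had 150, 156 and 175.5 CPM in Ruc_Total, against 64.98, 112 and 153 CPM in Vehicle (0.58, adjusted p = 0.268). Of 24 tested p53 targets 8 had an unadjusted p under 0.05, a larger share than the 13% of all genes, with a median of 0.02. CDKN1A, the p21 inhibitor of CDKs, had 22.5, 23.4 and 28.4 CPM in Ruc_Total and 15.9, 17.4 and 20.3 CPM in Vehicle (0.47, adjusted p = 0.324). BRCA2 had 3.81, 4.28 and 4.04 CPM in Ruc_Total, against 2.36, 4.20 and 4.21 CPM in Vehicle. Homologous recombination and checkpoint genes had 4 of 27 at an unadjusted p under 0.05, near the share over all genes, and a median of 0.03.

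Immediate-early and NF-kB genes had large fold changes in single genes without passing as whole genes. In the NF-kB list 14 of 16 genes were above 0, with a median of 0.36, 0 called and 8 at an unadjusted p under 0.05, beside 13% of all genes. CXCL1, a chemokine, had 51.8, 26.9 and 38.5 CPM in Ruc_Total and 9.28, 17.7 and 20.96 CPM in Vehicle (log2 fold change 1.18, adjusted p = 0.185). TNFAIP3, an inhibitor of NF-kB, lay just outside the threshold with 411, 245 and 296 CPM in Ruc_Total, against 115, 139 and 201 CPM in Vehicle (1.02, adjusted p = 0.051). So did DDIT4, an inhibitor of mTORC1, with 314, 325 and 349.5 CPM in Ruc_Total and 42.2, 188 and 156 CPM in Vehicle (1.49, adjusted p = 0.054). Without replicate 1 these log2 fold changes were 0.76 for CXCL1, 0.68 for TNFAIP3 and 0.98 for DDIT4. Of 28 immediate-early genes 0 were called and 11 had an unadjusted p under 0.05, beside 13% of all genes. In this list 16 were above 0 and 12 below, with a median of 0.04. FOSL1 had 344, 358 and 417 CPM in Ruc_Total and 90.8, 176 and 282 CPM in Vehicle (1.06). The nuclear receptor NR4A1 had 30.7, 26.5 and 29.9 CPM in Ruc_Total and 208, 28.5 and 25.9 CPM in Vehicle, so that its log2 fold change was -1.35 with replicate 1 and 0.07 without it.

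The mitochondrially encoded genes had large differences in some pairs only. Their share of reads was 0.950%, 0.835% and 0.692% in Ruc_Total, against 0.217%, 0.502% and 0.718% in Vehicle, so the mean difference of 0.346 percentage points held in 2 of 3 pairs (exact sign-change test, two-sided p = 0.5, where 3 pairs allow no less than 0.25). Of the 13 genes 12 were above 0, with a median of 0.90, 0 called and 9 at an unadjusted p under 0.05, beside 13% of all genes. The 77 tested cytosolic ribosomal protein genes had a median of 0.20, with medians of 0.40, -0.22 and 0.41 by replicate.

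**Figure D3:**
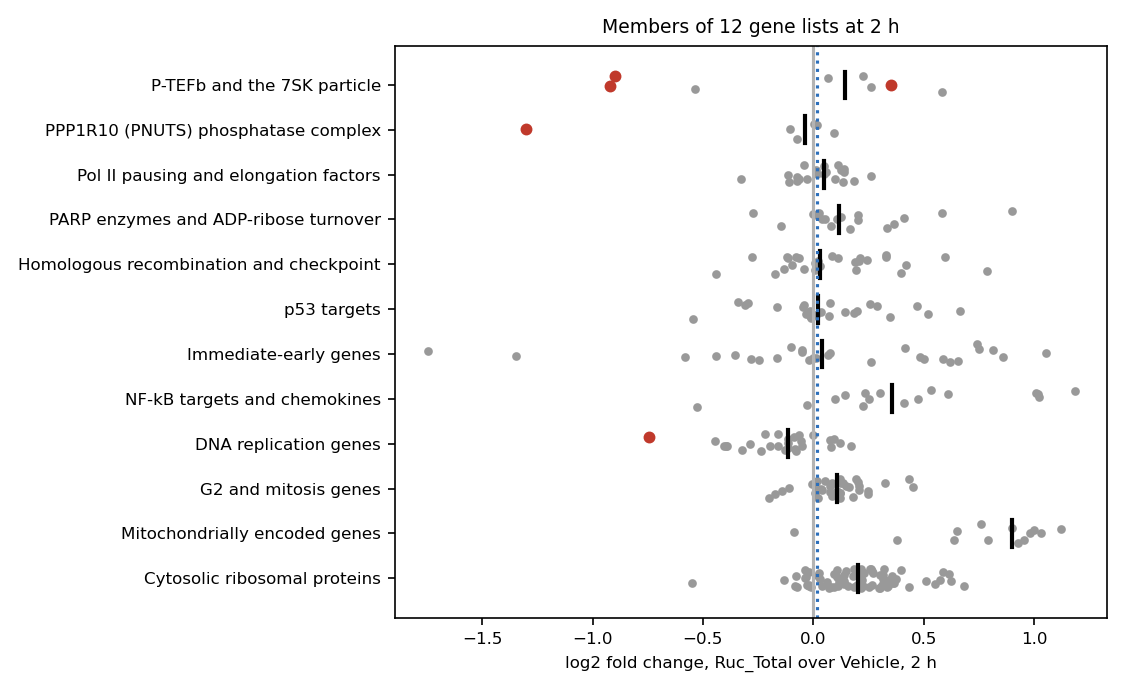
Log2 fold change of Ruc_Total over Vehicle at 2 h (x axis) for the members of 12 gene lists (rows), with called genes in red, others in grey, the median of each list as a black bar and the median of all genes (0.02) as a dotted line. Called members stand in the P-TEFb and 7SK, PPP1R10 complex and DNA replication lists.

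At the transcript level, 24 of 109685 transcripts were called (0.0219%), 12 higher (0.0109%) and 12 lower (0.0109%), with 10 (0.00912%) called without the replicate number. They included HEXIM1-201 and MEPCE-201. A PPP1R10 transcript matched by the gene name table was called as well, at 14.6, 17.95 and 11.7 CPM in Ruc_Total and 44.8, 41.2 and 48.5 CPM in Vehicle. PPP1R10-201, of similar length, took 9.68 CPM in Ruc_Total replicate 3 and was listed at 0 in the other 5 samples, and the sum over the gene does not depend on that division. Of the transcripts called higher, 5 of 12 were retained-intron forms, which make up 14.02% of the transcripts tested, and so were 2 of the 12 called lower.

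In several genes 1 form changed while the gene as a whole did not pass. DIDO1-201, the full-length form of the chromatin protein DIDO1 (chromosome 20, 62877738 to 62937952, minus strand), had 25.6, 34.4 and 34.3 CPM in Ruc_Total and 58.4, 67.6 and 81.1 CPM in Vehicle (log2 fold change -1.13, adjusted p = 0.013). It ends in an exon of 4677 bases and took 25.9%, 32.1% and 31.8% of the reads of the gene in Ruc_Total, against 54.9%, 59.3% and 57.8% in Vehicle. The shorter DIDO1-205, which stops at 54.7% of the gene's length, had 40.99, 37.3 and 38.2 CPM in Ruc_Total and 27.4, 25.7 and 36.9 CPM in Vehicle and was not called. The change in the gene's sum was -0.20.

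ESS2-201 and ING5-201, which end in exons of 4197 and 4490 bases, were called lower as well. Their genes as a whole had log2 fold changes of -0.32 and -0.53, which did not pass (adjusted p = 0.125 and 0.114). ESS2-201, of a splicing-associated protein, had 8.45, 7.83 and 6.86 CPM in Ruc_Total and 18, 13.3 and 14.2 CPM in Vehicle. ING5-201, of a histone acetyltransferase subunit, had 40.7, 32.5 and 33.5 CPM in Ruc_Total and 84.2, 62.5 and 59.5 CPM in Vehicle. In both the groups do not overlap.

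ALDH1A3-203 and SPOCK2-203, which end early in their genes, were called higher. ALDH1A3-203, of a retinaldehyde dehydrogenase, stops at 9.75% of the gene's length, and it had 46.6, 39.3 and 46.7 CPM in Ruc_Total, against 17.7, 14.1 and 13.7 CPM in Vehicle (1.55, adjusted p = 0.0048). The whole gene, with 2569, 2730 and 2560 CPM in Ruc_Total and 2769, 2562 and 2728 CPM in Vehicle, had a log2 fold change of -0.04. SPOCK2-203, of an extracellular proteoglycan, stops at 9.36% of the gene's length and had 79.1, 64.7 and 73.3 CPM in Ruc_Total, against 19.8, 34.3 and 27.1 CPM in Vehicle. POLR2B-208, a retained-intron form of the second largest polymerase II subunit that ends near the end of the gene, had 18.7, 12.6 and 17.4 CPM in Ruc_Total and 3.78, 3.85 and 3.37 CPM in Vehicle (2.15). CCNL1-214 ends at 91.0% of its gene's length. This retained-intron form of a cyclin that acts in splicing had 36.3, 19.4 and 18.8 CPM in Ruc_Total, against 16.6, 7.98 and 12.01 CPM in Vehicle.

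Across the transcriptome early and late ends had similar medians. Transcripts of at least 1 CPM that start before 10% of the length of a gene of at least 10 kb and end before 25% of its length (999) had a median log2 fold change of 0.00, and those that end after 95% of it (12577) had 0.06. Protein-coding transcripts whose last exon is at least 4000 bases long (1877) had a median of 0.07, with 3 called lower and 0 higher. Of all transcripts 0.0109% were called lower. The 3 are DIDO1-201, ESS2-201 and ING5-201, described above, so this count restates them and is a description only. SNX5-201 was listed at 0 in all Ruc_Total samples and had 13.7, 8.97 and 3.49 CPM in Vehicle, while SNX5 as a whole was at 281, 261 and 274 CPM in Ruc_Total and 225, 272 and 244 CPM in Vehicle. Such exact zeros can come from how reads are divided among similar transcripts, and no fold is given.

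**Figure D4:**
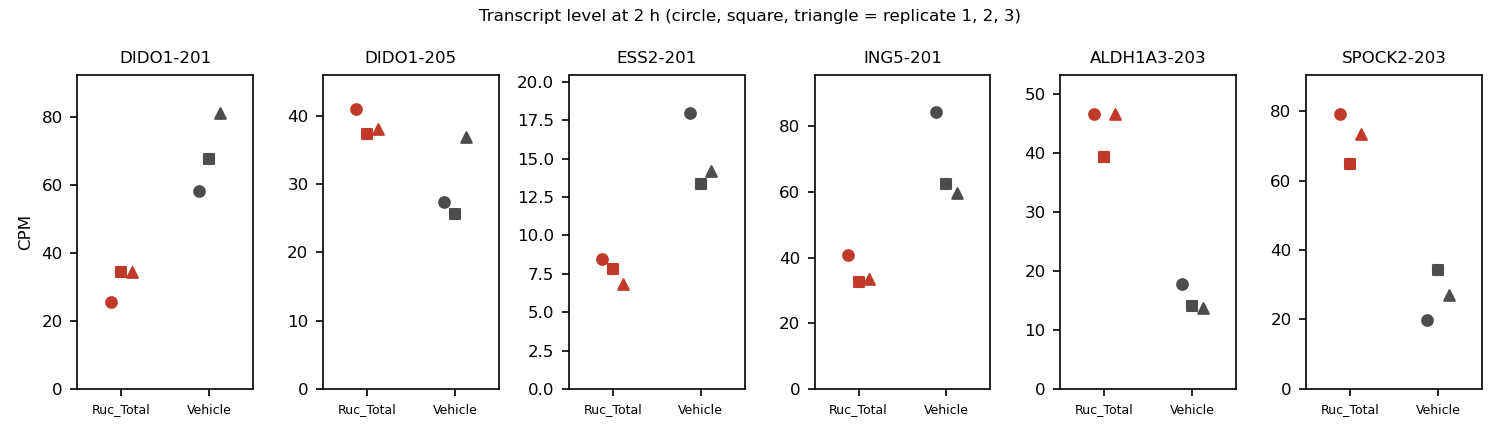
CPM (y axes, from 0) of 6 transcripts in the 3 Ruc_Total and 3 Vehicle samples at 2 h, with circles, squares and triangles for replicates 1, 2 and 3. DIDO1-201, ESS2-201 and ING5-201 are lower and ALDH1A3-203 and SPOCK2-203 higher in every Ruc_Total sample than in every Vehicle sample, and DIDO1-205 was not called.

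Transcript usage, the share of a gene's reads that each of its transcripts takes, was tested with limma's diffSplice after the planned test, edgeR's diffSpliceDGE, which called 627 genes (4.7%), had called unchanged genes in simulated data. It called 414 of 7491 genes (5.53%), with PGK1, TFRC, DIDO1 and KTN1 among those of the smallest p. The number was 15 without the replicate number, 0 in the 6 samples alone (660 at an unadjusted p under 0.05), and 15 when replicate 1 was left out, so the calls other than DIDO1 are not described further.

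To place the 29 genes in time, the same contrast was taken at 24 h, where 4826 of 20111 genes were called (24%). Of the 23 genes lower at 2 h, 6 were called lower and 3 higher at 24 h, and 14 were not called. PPP1R10 had a log2 fold change of -0.44 at 24 h (adjusted p = 0.027) and HEXIM1 of -0.29 (adjusted p = 0.037). Of the 6 genes higher at 2 h, 4 were called higher at 24 h (13.2% of all genes were, and 10.8% were called lower), among them INHBA (1.01) and CDK9 (0.27). A test of the difference, the change at 24 h minus that at 2 h, passed for 16 of the 23 lower genes, all with a smaller decrease or an increase at 24 h, and for 1 of the 6 higher, RBM14 (-0.69, adjusted p = 0.0051). Over all genes the difference passed for 18.1%, upward in 9.08% and downward in 9%. These genes were chosen for their change at 2 h, which the difference contains. The count of 3635 such genes was 28 without the replicate number and 0 without replicate 2 (3694 at an unadjusted p under 0.05), and 5090 by DESeq2.

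Between Ruc_High and Ruc_Low at 2 h, treated cells of high against low drug fluorescence, 0 of the 29 genes were called, against 78 of all genes (0.388%) by edgeR. At an unadjusted p under 0.05, 4 of the 23 lower genes and 0 of the 6 higher passed, beside 1253 of all 20111 genes. PPP1R10 had a log2 difference of -0.33 (unadjusted p = 0.028) and HEXIM1 of -0.01.

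**Figure D5:**
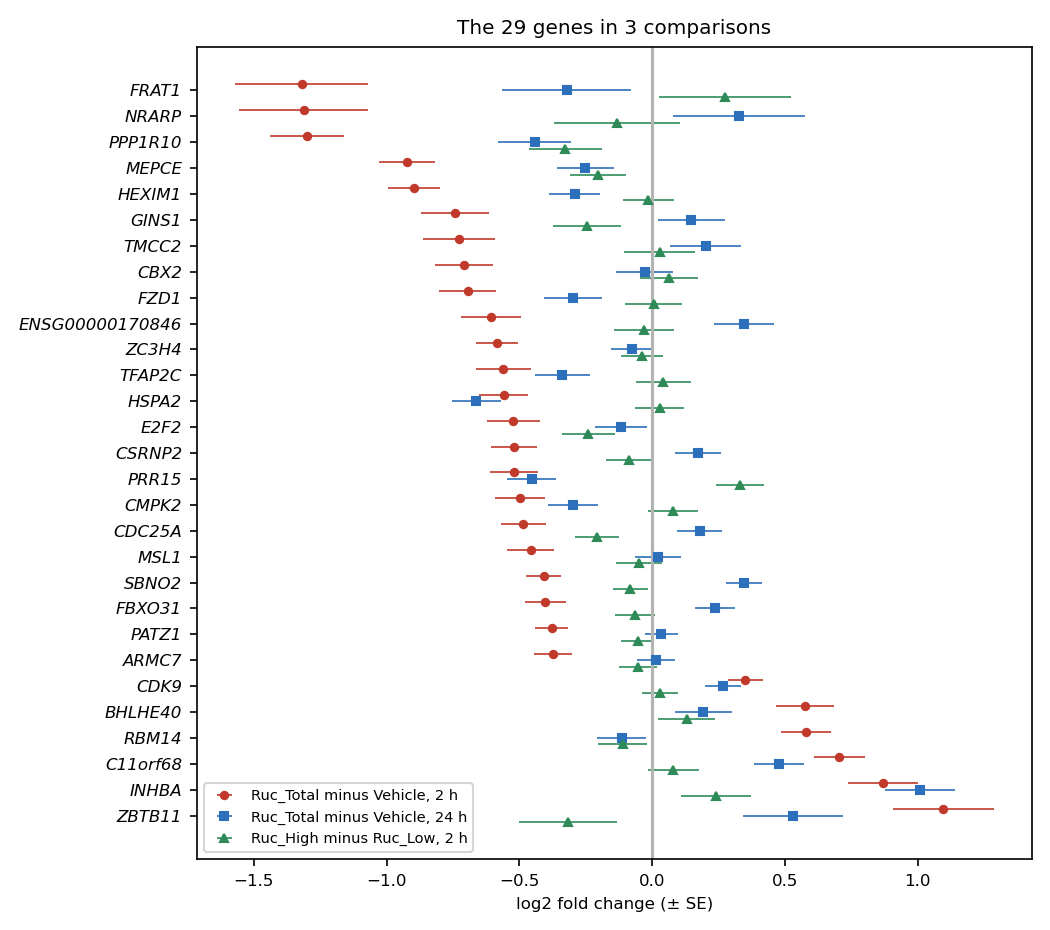
Log2 fold changes ± SE (x axis) of the 29 called genes (rows) for Ruc_Total minus Vehicle at 2 h (red circles) and 24 h (blue squares) and for Ruc_High minus Ruc_Low at 2 h (green triangles). Most lower genes lie nearer 0 at 24 h, and the differences between Ruc_High and Ruc_Low lie between -0.33 and 0.33.

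All 29 genes are protein-coding. The 23 lower genes had a median span of 18.2 kb and the 6 higher ones of 8.49 kb, beside 32.99 kb over the 15050 protein-coding genes tested. HEXIM1, FZD1 and NRARP have a single exon, 3 of the 23 lower genes (13.04%) beside 2.31% of the protein-coding genes. Over the 9 libraries, values did not overlap between the groups in 11 of the 23 lower and 4 of the 6 higher genes (0.288% of all genes). The libraries are technical repeats of the samples that chose these genes, so this count is a description only.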

How the data were processed

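Poly(A) RNA was sequenced, and the authors deposited 1 table per library with estimated counts per transcript, the TPM and the effective length. The submitters' processing notes name cutadapt 4.7, Salmon, DESeq2 1.44.0 and GRCh38, and the Salmon version is not given in the sources used here. The estimated counts deposited by the authors were summed over the 3 libraries of a replicate and over the transcripts of a gene (GENCODE 29, otherwise a gene name table), and rounded. Of 257369 transcripts 51256 matched no gene and were left out of gene sums. The deposited TPM and effective length served only alternatives. All 24 summed samples entered edgeR 4.0.16 (filterByExpr, TMM, quasi-likelihood, Benjamini-Hochberg, R 4.3.3), with the replicate number as a block. The pairing comes from the replicate numbers in the labels: deviations of Ruc_Total and Vehicle from their group means correlated at 0.339, 0.113 and 0.241 for replicates 1 to 3, and at -0.332 to 0.131 between numbers. CPM were taken from the summed counts. Alternatives used DESeq2 1.42.0 and limma 3.58.1, and those of the gene count at 2 h are listed with their values in the closing section. The scripts were tested on simulated data. The genes described in full are those called, with members of 39 gene lists, and these members and lists were chosen with earlier results of these data known. Some results are not reported here.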

Additional observations from a re-analysis of the deposited data

Results flagged for a closer look

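Single libraries stood far from the other 8 of their group in 10 of 68 group values examined, where chance gives about 1 in 20, and the libraries of a replicate are technical. A Ruc_Total library had 1.518% mitochondrial reads. In Vehicle, the library of the lowest total, 22092472 reads, was also the one with 26712 genes detected, and it is a library of replicate 1. Among called genes, that same library stood high at 427.3 CPM for HEXIM1 and 132.3 CPM for MEPCE. Single Vehicle libraries stood high at 105.2 CPM for ENSG00000170846, 6.293 CPM for TMCC2, 171 CPM for MSL1 and 5.5 CPM for FRAT1, and 1 Ruc_Total library stood low at 1.541 CPM for TMCC2.

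In edgeR's test of the difference, the 24 h and 2 h changes were unlike in 17 of the 29 genes, beside 18.1% of all genes. The 29 were chosen for their change at 2 h, which the difference contains, so this count is a description only. As the 24 h change minus the 2 h change (log2), the values were 0.858 for PPP1R10, 0.6049 for HEXIM1, 0.6724 for MEPCE, 0.5111 for ZC3H4, 0.6796 for CBX2 and 0.414 for PATZ1. They were 0.7555 for SBNO2, 0.695 for CSRNP2, 0.8916 for GINS1, 0.6645 for CDC25A and 1.6409 for NRARP. They were 0.9534 for ENSG00000170846, 0.9294 for TMCC2, 0.6397 for FBXO31, 0.4793 for MSL1 and 0.3906 for ARMC7, and RBM14 alone was negative at -0.6935.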

How the results depend on the processing

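The 29 genes called at 2 h became 5 without the replicate block, 0 in the 6 samples alone (921 at an unadjusted p under 0.05), 1 in the 12 samples at 2 h, 10 with an effective length offset and 3 on log2(TPM + 1) with limma. They became 419 with DESeq2, 47 with DESeq2 size factors, 171 with no filter, 65 at a minimum of 1 CPM, 942 with 9 libraries per group, 231 with transcript length as a covariate, 53 without the Vehicle library of the lowest total and 1017 without libraries under 2800 bases. With the replicate block set within each time 37 genes were called, 21 of them among the 29. With limma-voom 27 were called, 23 of them among the 29. Leaving out 1 replicate gave 0 to 5 (0 without replicate 2, with 2216 at an unadjusted p under 0.05). Genes called higher were 20.7% of the calls, against 53.2% with the covariate, 49.3% without the short libraries and 42.7% with no filter. The cause of these differences was not tested.

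The 3635 genes whose change differed between times became 28 without the replicate block, 1309 with the offset, 764 with the covariate and 0 (without replicate 2) to 5053 without 1 replicate. The 4826 genes at 24 h became 675, 2611, 1175 and 73 to 4663. The 78 genes between Ruc_High and Ruc_Low became 1, 36, 156 and 0 to 6 (701 at an unadjusted p under 0.05 without replicate 2), and 176 with DESeq2. The 24 transcripts became 10 without the block, 0 in the 6 samples (1639 at an unadjusted p under 0.05), 3974 with DESeq2 and 1 to 6 without 1 replicate. The planned usage test (627 genes) gave 176, 36 and 258 to 661, and the added one (414) gave 15, 0 and 15 to 468. No direction of the 29 genes was reversed, in refits of the samples that chose them.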

Other observations

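Genes of the compartment in which a basic drug can collect were also measured. Of 20 lysosomal membrane genes and 30 genes of the lysosomal lumen 0 were called by edgeR at 2 h. At an unadjusted p under 0.05 were 2 and 3 of them, beside 13% of all genes. Their median log2 fold changes were -0.02 and 0.08. Of 16 genes of the V-ATPase, which acidifies lysosomes, 0 were called and 4 had an unadjusted p under 0.05, with a median of 0.09. LAMP2, a major lysosomal membrane protein, had 107, 129 and 124 CPM in Ruc_Total and 72.3, 105 and 123 CPM in Vehicle. Of 8 drug efflux transporters 0 were called, with 0 at an unadjusted p under 0.05.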
